A study of Mus musculus with 6 samples.

Results

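Tight junctions seal neighbouring endothelial or epithelial cells to each other. They are built from membrane proteins, which meet across the gap between cells, and from scaffolds on the cytoplasmic side, which tie those proteins to actin. The membrane proteins include the claudins, occludin and the junctional adhesion molecules (JAMs), which are immunoglobulin-like adhesion proteins. In the heart, tight junctions belong above all to the endothelium of the vessels, while the scaffold encoded by Tjp1 is also found at the intercalated disc, where cardiomyocytes join end to end.

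The 9 genes described here are the JAM genes Jam2, Jam3 and F11r, the claudin genes Cldn1, Cldn5, Cldn12 and Cldn15, the occludin gene Ocln and the scaffold gene Tjp1. They were chosen by name from the 18193 genes that the array reads with a probe set of a single gene symbol, and every such probe set of theirs was taken, 20 in all. The list was drawn up with results of these data in view, so the differences between groups given for its genes are descriptions and support nothing further.

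Left ventricles were compared between Glut1-TG mice, which express human Glut1, a glucose transporter, from the cardiomyocyte promoter of the alpha-myosin heavy chain gene, and wild-type (WT) mice, with 3 arrays in each group. Both groups were on the FVB background and consisted of males aged 11 to 12 weeks on standard chow, and no further treatment is given for either. The labels number the replicates but do not state that each is a separate mouse. The p-values thus set the group difference against the spread between these samples, which may be technical. Each value is the signal of a probe set, a group of short probes for a transcript, on a linear scale that the authors had set to a common trimmed mean.

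The median signal over all probe sets was 181 to 213 in Glut1-TG arrays and 171 to 187 in WT arrays. Glut1-TG replicate 1 stood apart: 19 of its probe sets exceeded a signal of 500 and lay above 3 times the signal of every other array, against 0 or 1 probe sets in each of the other 5 arrays. Mouse Slc2a1, the gene whose human counterpart is the transgene, has 3 probe sets whose groups did not overlap. Signals in Glut1-TG were higher in 1 of them (851, 753 and 757, against 527, 409 and 533 in WT). They were lower in the other 2 (174, 125 and 128 against 411, 306 and 265 in WT, and 55.9, 123 and 87.1 against 412, 430 and 401). The probes were designed for the mouse gene, and whether they also read the human transcript was not tested. Among 12 lists of cell type markers, the limma fit described below called none of the genes in 11 of them, namely endothelium, lymphatic endothelium, cardiomyocytes, fibroblasts, smooth muscle and pericytes, macrophages and monocytes, lymphocytes, platelets, epithelium and mesothelium, nerve, and erythroid cells. In the list for atria, the myosin light chains Myl7 and Myl4 were called higher in Glut1-TG, 2 of the 3 genes tested. Of all genes tested, 0.258% were called higher. Myl7 had 26.5, 90.5 and 14.2 in WT and passed the filter described below only through its Glut1-TG signals (378, 713 and 315). The remaining gene, Nppa, was not called, and its groups overlapped (3783, 4416 and 7262 in Glut1-TG, 5577, 5436 and 4639 in WT).

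In Glut1-TG hearts Jam2 was lower than in WT hearts, and no other of the 9 genes passed the test. Jam2 encodes JAM-B, an adhesion molecule of endothelial cells that binds Jam3 protein on the facing cell and the integrin alpha4 beta1 on leukocytes. For each gene the probe set with the highest mean on the log2 scale was used, and sets in the lowest 40% by that mean, below a signal of 115, were left out. The groups were compared by limma with p adjusted over 13178 genes by Benjamini-Hochberg. All 9 genes passed this filter, Cldn1 only through its Glut1-TG signals. At an adjusted p under 0.05, 1 of the 9 genes was lower and 0 were higher in Glut1-TG. Over all genes tested, 0.599% were lower and 0.258% were higher, 0.857% in all. The groups did not overlap in 2 of the 9 genes, Jam2 (lower) and Cldn1 (higher), and in 17.4% of all genes tested (8.77% lower, 8.67% higher). At the study's thresholds, a minimum fold change with an unadjusted p under 0.05 by the methods' test, Jam2 alone of the 9 was called, against 5.84% of all genes in either direction and 2.65% lower. The median log2 fold change was -0.14 over the 9 genes and 0.017 over all genes tested, where a log2 fold change is the mean log2 signal of Glut1-TG minus that of WT. In whole tissue, fewer cells of a type and less RNA per cell cannot be told apart.

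**Figure D1:**
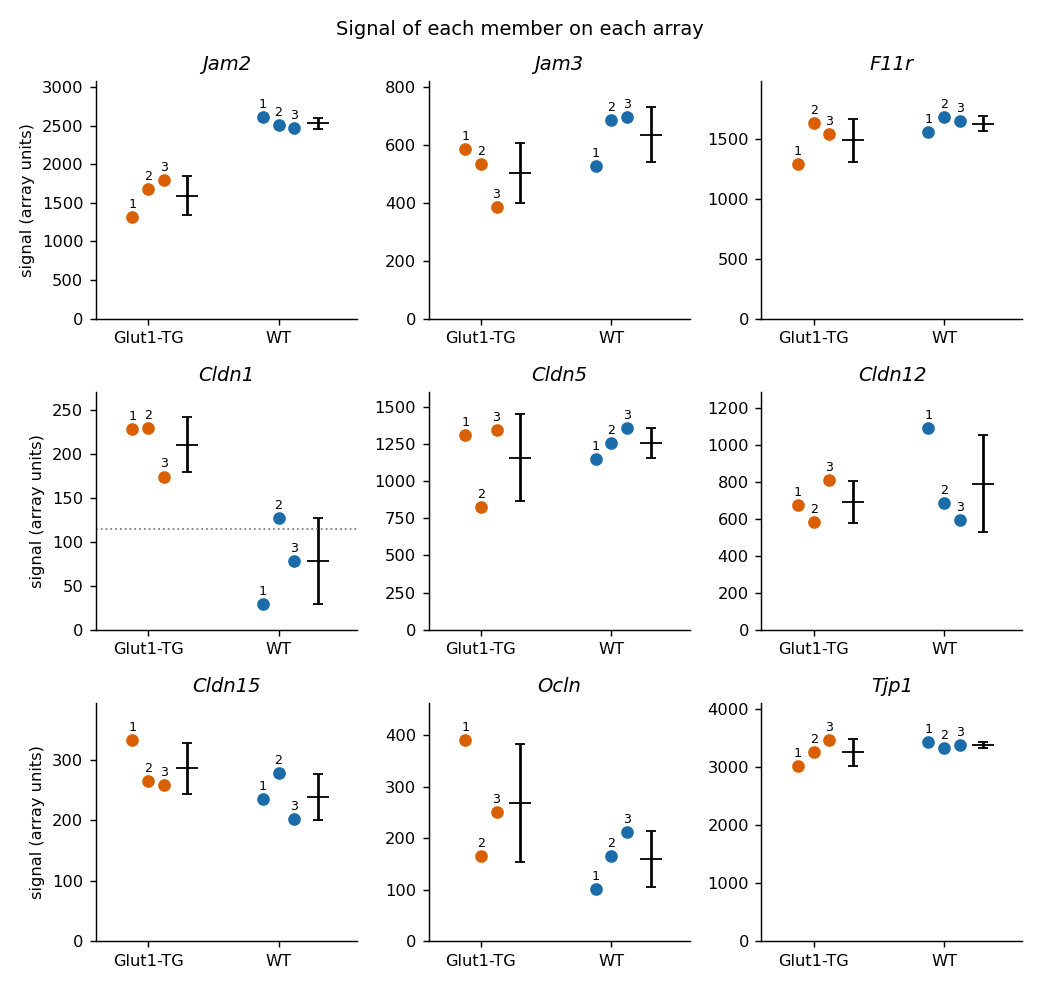
Signal (vertical axis, linear array units from 0) of the probe set used for each of the 9 genes on each array, with Glut1-TG (orange) left of WT (blue), replicate numbers beside the points, and the mean with SD as a black bar (n = 3 arrays each). The groups are separate in Jam2 (1312 to 1797 in Glut1-TG, 2476 to 2610 in WT) and in Cldn1, where the dotted line marks the filter's signal of 115 and 2 of the WT arrays lie below it.

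The Jam2 probe set 1436568_at had signals of 1312, 1678 and 1797 in Glut1-TG replicates 1 to 3, against 2610, 2515 and 2476 in WT replicates 1 to 3. The highest Glut1-TG array thus lay below the lowest WT array, and the WT arrays were close to each other while the Glut1-TG arrays were spread over a wider range. The means were 1596 ± 253 in Glut1-TG and 2534 ± 69.1 in WT (SD, n = 3 each), a ratio of 1.59 of WT over Glut1-TG. On the log2 scale Jam2 was lower by a fold change of -0.68 with a standard error of 0.12 and a 95% confidence interval of -0.95 to -0.40, and limma over all genes gave an adjusted p of 0.041. This value lies near the threshold, and the call ended without WT replicate 1, 2 or 3 (adjusted p = 0.15, 0.16 and 0.16 from limma) and without Glut1-TG replicate 2 (0.070), whereas it held without Glut1-TG replicate 1, the array that stood apart (log2 fold change -0.54, adjusted p = 0.036). Under eBayes without an intensity trend it was 0.27, as the mean of all Jam2 probe sets the log2 fold change was -0.33 (adjusted p = 0.62), and with the replicate number as a block the adjusted p was 0.077.

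Of the 5 Jam2 probe sets, 4 lay above the filter. Of these 4, 3 had lower signals in every Glut1-TG array than in any WT array, as had 8.42% of all probe sets above the filter (16.4% in either direction). Beside the set already given, 1449408_at had 1048, 1305 and 1242 in Glut1-TG replicates 1 to 3 and 2341, 2344 and 2122 in WT replicates 1 to 3. Its means were 1198 ± 134 in Glut1-TG and 2269 ± 127 in WT (SD, n = 3 each), a ratio of 1.89 of WT over Glut1-TG. The probe set 1419288_at, annotated to the same reference transcript as 1449408_at, had 674, 769 and 875 in Glut1-TG replicates 1 to 3 and 1048, 1008 and 1045 in WT replicates 1 to 3, a ratio of 1.34. The same order of the groups in these 3 sets follows from their choice as the sets without overlap, and their differences were of unequal size. In the other 2 Jam2 sets, given below, the groups overlapped.

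When limma was run on each of the 22551 probe sets that passed the filter, 1449408_at had a log2 fold change of -0.93 ± 0.11 (standard error) and an adjusted p of 0.0092. The adjusted p of 1436568_at was 0.054, and 1419288_at had -0.43 ± 0.13 (standard error) with an adjusted p of 0.30. Over all these probe sets, 0.31% were lower at an adjusted p under 0.05 and 0.448% passed in either direction. The set 1449408_at gave adjusted p-values of 0.016 to 0.062 when each array was left out in turn, and missed 0.05 without WT replicate 1 (0.051) and without WT replicate 2 (0.062). The other Jam2 probe sets were annotated to a different cDNA clone and read low and scattered signals. The set 1431416_a_at had 247, 152 and 311 in Glut1-TG and 367, 84.1 and 242 in WT, with overlapping groups and a log2 fold change of 0.22 (standard error 0.52). The set 1431417_at lay under the filter, with 28.2 to 79.7 in Glut1-TG and 16.2 to 98.2 in WT.

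**Figure D2:**
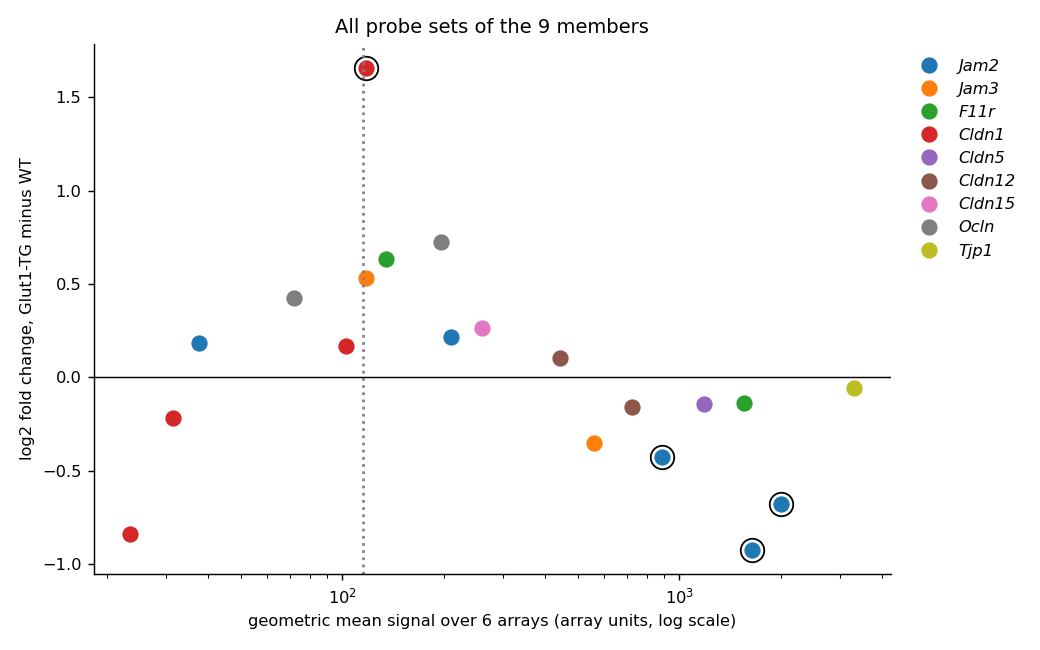
Log2 fold change (Glut1-TG minus WT, vertical axis) of all 20 probe sets of the 9 genes against their geometric mean signal over the 6 arrays (horizontal axis, log scale), coloured by gene. Black rings mark the 4 sets above the filter (dotted line at a signal of 115) whose groups did not overlap, 3 of Jam2 with fold changes of -0.43 to -0.93 and 1 of Cldn1 at 1.66 just right of the line.

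Markers of the endothelium, the cell type best known for Jam2, were set beside it. Of 12 such markers, 12 were tested and 0 passed limma in either direction. Their median log2 fold change was -0.020, and their summed signal was 24635 to 25299 in Glut1-TG arrays and 24127 to 27341 in WT arrays. The marker with the smallest p was Kdr, a receptor for vascular endothelial growth factor, with 2518, 2487 and 2272 in Glut1-TG and 4075, 2854 and 3088 in WT (log2 fold change -0.44, adjusted p = 0.23 from limma). The groups were also separate in the sialomucin gene Emcn, lower by a log2 fold change of -0.052, and in the receptor gene Tie1, higher by 0.21, and overlapped in the other 9. That is 3 of 12 without overlap, beside 17.4% of all genes tested. Of the brightest markers, Eng, a co-receptor for TGF-beta, had 5384, 5049 and 5081 in Glut1-TG and 5829, 4712 and 4796 in WT, and Egfl7, a secreted endothelial factor, had 2157, 2493 and 2575 in Glut1-TG and 2290, 2100 and 2309 in WT. The signals of both overlapped between the groups. The 5 markers of lymphatic endothelium had a median of -0.067 and 0 calls.

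The 14 cardiomyocyte markers were all measured, with 0 calls by limma, 4 lower at an unadjusted p under 0.05 (5.81% of all genes tested) and a median log2 fold change of -0.18. Their summed signal was 499437 to 532966 in Glut1-TG arrays and 534410 to 642569 in WT arrays, which did not overlap. With each array centred on the endothelial markers, an alternative chosen after seeing the data, the log2 fold change of Jam2 was -0.66 and its adjusted p was 0.088. With each array centred on the cardiomyocyte markers, chosen likewise, the values were -0.49 and 0.17, where the median over all genes was 0.20.

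**Figure D3:**
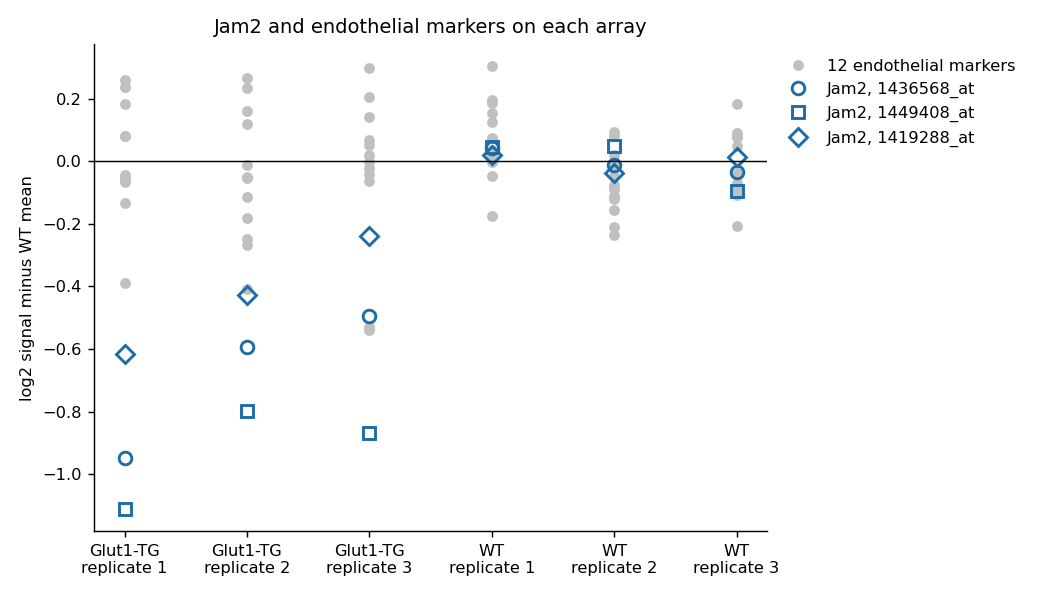
Log2 signal minus the WT mean of the same probe set (vertical axis) on each array (horizontal axis), for 12 endothelial markers (grey points) and for the 3 Jam2 probe sets whose groups did not overlap (blue outlines). On Glut1-TG arrays the set 1449408_at lies below every endothelial marker, and the other 2 sets lie below 0 while the markers scatter on both sides of it.

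The genes closest to Jam2 over the 6 arrays were sought by the mean absolute difference in log2 signal after centring each gene on its own mean, a comparison chosen after the Jam2 values were seen. They were Bend5, Rragd, Bckdha, Cpeb3 and Efnb3, with differences of 0.043 to 0.070. Rragd encodes a small GTPase of lysosomal amino acid sensing, and Bckdha encodes a subunit of the complex that commits branched-chain amino acids to oxidation. Rragd had 1681, 1969 and 2058 in Glut1-TG and 2944, 2753 and 2920 in WT, a log2 fold change of -0.60. The log2 fold changes of Bckdha, Cpeb3 and Efnb3 were -0.62, -0.76 and -0.65. Bend5, the closest, had 87.3, 119 and 127 in Glut1-TG and 177, 190 and 174 in WT. Its Glut1-TG mean of 111 lay under the filter's signal of 115, so Bend5 passed the filter only through its WT signals. Bend5 was not called (adjusted p = 0.52 from limma). Whether these genes share a function was not tested. A difference of about the size of that of Jam2 was fixed by how these genes were chosen, so their values are a description.

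Jam3, which encodes JAM-C, the partner of JAM-B and a ligand of the leukocyte integrin Mac-1, had 584, 534 and 385 in Glut1-TG and 526, 684 and 694 in WT (probe set 1423503_at). The groups overlapped, because WT replicate 1 lay below Glut1-TG replicates 1 and 2. The means were 501 ± 104 in Glut1-TG and 635 ± 94.4 in WT (SD, n = 3 each). The log2 fold change was -0.35 with a 95% confidence interval of -0.80 to 0.10 and an adjusted p of 0.55, and it was -0.17 without Glut1-TG replicate 3. The second Jam3 probe set, at the edge of the filter, had 166, 134 and 128 in Glut1-TG and 159, 97.3 and 61.1 in WT, a log2 fold change of the opposite sign (0.53, standard error 0.48).

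F11r encodes JAM-A, which is found on endothelium, epithelium, platelets and leukocytes. Its probe set 1424595_at had 1290, 1637 and 1549 in Glut1-TG and 1559, 1685 and 1653 in WT. The 2 groups overlapped, and the lowest value was that of Glut1-TG replicate 1. The log2 fold change was -0.14 (95% confidence interval -0.39 to 0.12, adjusted p = 0.70 from limma), and -0.035 without that array. A second F11r set had 227, 128 and 164 in Glut1-TG and 172, 41.6 and 178 in WT. Whether the fold changes of the 3 JAM genes differ from each other was not tested.

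The integrin subunits that bind JAMs were also measured on the array, and 0 of 6 tested passed limma, with a median log2 fold change of 0.10. The 2 with the smallest p were Itgb1, the beta1 chain found in many cell types, with 5475, 5858 and 5736 in Glut1-TG and 5112, 4840 and 5055 in WT, and Itga4, the alpha4 chain of leukocytes, with 401, 310 and 189 in Glut1-TG and 177, 138 and 216 in WT. Their log2 fold changes were 0.19 and 0.72, with adjusted p-values of 0.41 and 0.48. Itgb1 signals were separate between the groups and Itga4 signals overlapped.

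Among the claudins, Cldn5 is the main claudin of endothelial cells. Its single probe set had 1307, 822 and 1344 in Glut1-TG and 1149, 1256 and 1353 in WT. The groups overlapped, and Glut1-TG replicate 2 alone was low. The log2 fold change was -0.15 (95% confidence interval -0.55 to 0.26, adjusted p = 0.81 from limma), and it was 0.084 without that array.

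Cldn12, a claudin that lacks the tail by which most claudins bind PDZ scaffolds, had 678, 583 and 812 in Glut1-TG and 1091, 688 and 596 in WT in its probe set 1433781_a_at. WT replicate 1 was the highest of the 6 arrays and the others overlapped. The second Cldn12 set had 400, 438 and 554 in Glut1-TG and 420, 492 and 379 in WT. The log2 fold changes were -0.16 (95% confidence interval -0.67 to 0.35, adjusted p = 0.84) and 0.10, and that of the first set was 0.10 without WT replicate 1. Neither set thus showed a direction that held across the arrays.

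Cldn15, which forms cation channels in the intestine, had 334, 265 and 259 in Glut1-TG and 236, 279 and 202 in WT. Glut1-TG replicate 1 was the highest array and the groups overlapped. The log2 fold change was 0.26 (95% confidence interval -0.30 to 0.83, adjusted p = 0.75), and it was 0.15 without Glut1-TG replicate 1, the array that stood apart, or without WT replicate 3.

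Cldn1, the claudin of the epidermal barrier, gave the largest fitted fold change of the 9 genes from the dimmest signals. Its probe set 1450014_at had 229, 229 and 174 in Glut1-TG and 29.2, 128 and 78.1 in WT. Every Glut1-TG array lay above every WT array, with WT replicates 1 and 3 under the filter's signal of 115, so the size of the fold is not determined. The fitted log2 fold change was 1.66 (standard error 0.58, unadjusted p = 0.017, adjusted p = 0.33 from limma), and 11.3% of all genes had an unadjusted p under 0.05. The geometric mean of this set over the 6 arrays was 118, just above the filter, and the set was too dim to be tested without WT replicate 2 or without any of the Glut1-TG arrays. The other 3 Cldn1 probe sets, all under the filter, overlapped between the groups and had log2 differences of 0.17, -0.22 and -0.84, the first from a set with a mean signal of 110 ± 18.6 in Glut1-TG and 98.1 ± 19.4 in WT (SD, n = 3 each).

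By the rule for the gene with the largest fold change, the genes closest to Cldn1 over the 6 arrays were 1700029M20Rik, Omd, Pcdhb2, Nipal1 and St8sia3, with mean absolute differences of 0.20 to 0.27. None of the 5 passed limma. They share with Cldn1 a lowest signal in WT replicate 1, 30.6 to 50.2, which follows from their choice by the Cldn1 profile.

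Ocln encodes occludin, which lines tight junction strands together with the claudins. The probe set 1440220_at had 392, 164 and 251 in Glut1-TG and 102, 166 and 211 in WT. The groups overlapped, and Glut1-TG replicate 1, the array that stood apart, had the highest signal. The means were 269 ± 115 in Glut1-TG and 160 ± 54.8 in WT (SD, n = 3 each), a log2 fold change of 0.73 (95% confidence interval -0.19 to 1.65, adjusted p = 0.55 from limma), which was 0.41 without that array. The second Ocln set, under the filter, had 74.4, 94.8 and 81.8 in Glut1-TG and 53.3, 81.3 and 55.0 in WT.

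Markers of epithelium were set beside Ocln and Cldn1, since both genes are typical of epithelia. Of 8 markers of epithelium and mesothelium, 5 were tested and 0 passed limma, and their summed signal was 1638 to 6342 in Glut1-TG arrays and 1337 to 2074 in WT arrays. The upper end came from Glut1-TG replicate 1, in which 1 probe set of the epithelial adhesion gene Epcam had 4974, against 416 to 752 on the other 5 arrays, while the second Epcam set had 9.9 to 17.3 on all 6. Of the claudins under the filter, Cldn19 had 357 and Cldn7 had 314 on that array, against 35.8 to 104 and 28.2 to 92.1 on the other 5. Of the other markers tested, Krt8 was also highest on that array (476, against 220 to 417 on the other 5). Krt18, Upk3b and Wt1 had 144, 207 and 218 there, within the range of the other 5. The epithelial genes Cdh1, Krt19 and Msln lay under the filter. The part of that array in the Ocln value was not tested beyond leaving the array out.

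Tjp1 encodes the scaffold of tight junctions and of intercalated discs that binds claudins, JAMs and connexins through its PDZ domains, and also binds occludin. Its single probe set had 3019, 3257 and 3473 in Glut1-TG and 3426, 3328 and 3379 in WT. The groups overlapped, with Glut1-TG arrays on both sides of the narrow WT range. The means were 3250 ± 227 in Glut1-TG and 3378 ± 49.1 in WT (SD, n = 3 each), a log2 fold change of -0.058, which was -0.0060 without Glut1-TG replicate 1 and -0.11 without Glut1-TG replicate 3. The 95% confidence interval of -0.25 to 0.13 was the narrowest of the 9 genes.

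**Figure D4:**
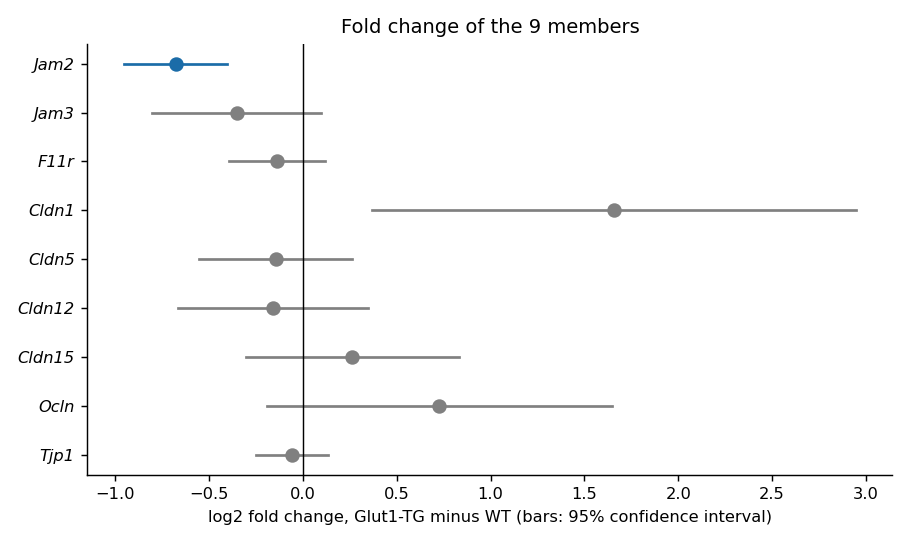
The horizontal axis gives the log2 fold change of Glut1-TG over WT for the 9 genes (rows), with bars for the 95% confidence interval from limma (n = 3 arrays each). Jam2 (blue) passed at an adjusted p under 0.05 and the others (grey) did not, and the interval of Cldn1 is the widest, 0.37 to 2.95, and that of Tjp1 the narrowest.

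The other genes of tight junctions on the array were taken from lists of further claudins, of membrane proteins of tight and tricellular junctions, and of scaffold and plaque proteins. Of 59 genes listed, 36 were tested, 0 passed limma in either direction, and at an unadjusted p under 0.05 there were 1 higher and 3 lower genes, where the shares over all genes tested were 5.47% and 5.81% (11.3% in all). Their median log2 fold change was -0.038. The groups did not overlap in 4 genes that were higher and 4 that were lower, 8 of 36, where the share among all genes tested was 17.4%. At the study's thresholds Cldn10 was higher and Cldn2 and Bves were lower, 3 of 36, against 5.84% of all genes tested. Cldn10, also among the 4 higher genes without overlap, lay under the filter's signal of 115 on every WT array. It was thus tested only through its Glut1-TG signals, and its place in both counts is a description.

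Of 6 further claudins tested, those with the smallest p were Cldn2, which forms cation pores in leaky epithelia, with 200, 258 and 241 in Glut1-TG and 367, 335 and 310 in WT, and Cldn10, which forms ion pores in the kidney, with 141, 159 and 189 in Glut1-TG and 57.8, 107 and 101 in WT. Both had separate groups at low signals, in opposite directions, with log2 fold changes of -0.54 and 0.92 and adjusted p-values of 0.43 and 0.49 from limma. The size of the Cldn10 fold is not determined, since its WT signals all lay under the filter. Of 10 membrane proteins tested, Bves, a cyclic AMP-binding Popeye domain protein of muscle and of cell junctions, had the smallest p. It had 1363, 1355 and 1283 in Glut1-TG and 1665, 1952 and 2161 in WT, and its difference of -0.52 on the log2 scale, with a standard error of 0.12, had an adjusted p of 0.094. Next came Nectin2, a nectin of adherens and tight junctions, with 353, 295 and 233 in Glut1-TG and 358, 365 and 345 in WT and an adjusted p of 0.66. Esam, an endothelial relative of the JAMs, had 3307, 3505 and 3765 in Glut1-TG and 3624, 3442 and 3832 in WT, with overlapping groups, and Cxadr, the coxsackievirus and adenovirus receptor, had a log2 fold change of -0.0094. Of 20 scaffold and plaque proteins tested, the angiomotin relative Amotl1 had 2965, 3173 and 2965 in Glut1-TG and 2628, 2383 and 2443 in WT, and the PDZ scaffold Magi3 had 986, 1237 and 802 in Glut1-TG and 1943, 1345 and 1292 in WT. Both had separate groups, with log2 fold changes of 0.29 and -0.60 and adjusted p-values of 0.24 and 0.29.

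Neighbouring adhesion structures were measured in the same fit. Of 8 genes of the endothelial adherens junction and 10 of the intercalated disc, 0 passed limma, and the median log2 fold changes were 0.059 and -0.013. In the list named for the endothelial junction, the catenins Ctnna1 and Ctnnb1, which link cadherins to actin, had log2 fold changes of -0.20 and -0.17. Which cells of the ventricle their signals came from was not tested. In the list for the disc, the plakoglobin gene Jup had 0.30 and the desmoplakin gene Dsp had -0.23, with adjusted p-values of 0.31 and 0.38. These 4 were the genes of the 2 lists whose groups did not overlap, 4 of 18 where the share of all genes was 17.4%, and none of them passed.

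**Figure D5:**
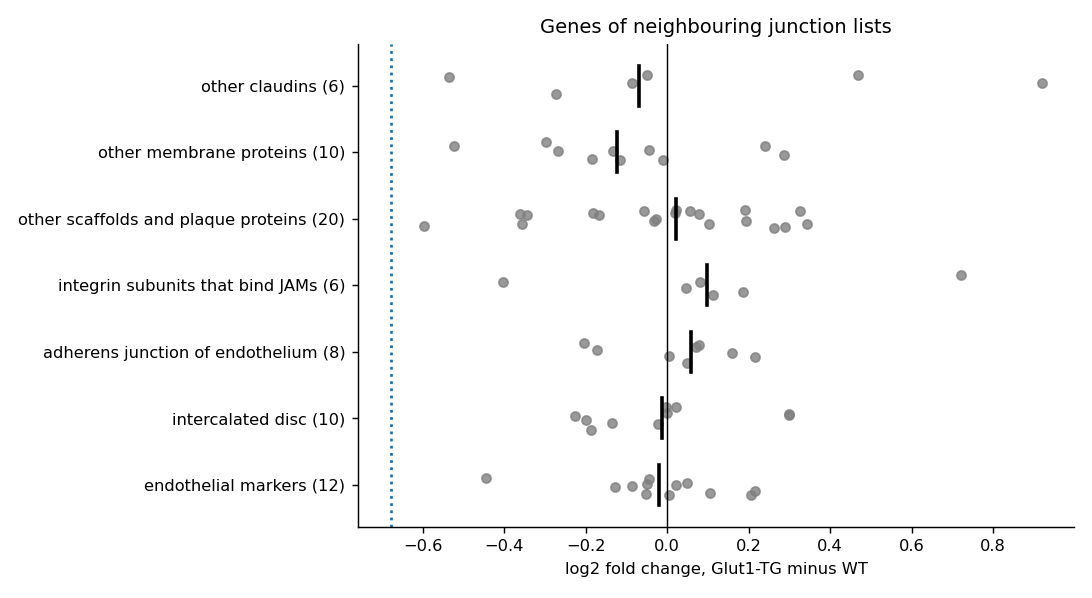
Horizontal positions are log2 fold changes of Glut1-TG over WT for each tested gene of the lists named in the rows (number tested in brackets), with grey points for genes, shifted up or down at random within a row, and black lines for medians. No gene shown passed limma, the medians run from -0.12 to 0.10, and the dotted line marks Jam2 at -0.68.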

How the data were processed

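Total RNA of left ventricles was labelled as biotinylated cRNA by the authors, hybridised to an Affymetrix mouse array and processed with GCOS, whose version is not given in the sources used here. The deposited values are 1 intensity per probe set on a linear scale, with no detection calls. With 2% trimmed from either tail, all 6 arrays had a mean of 500, so they were not scaled again. Values under 1 (48) were set to 1 before log2. Of 45101 probe sets, 64 controls were left out; 34945 of the rest had 1 gene symbol in the platform annotation. No symbol needed an update through the RefSeq gene table of GRCm38.p6, and Pals1 was found under its synonym.

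Glut1-TG was compared with WT in R 4.3.3 with limma 3.58.1 (lmFit, eBayes with an intensity trend), on the genes and at the thresholds stated above, and the procedure was tested on simulated data. The number of arrays limits the precision. The members and the lists, written from general knowledge, were chosen with earlier results of these data known. Genes named are the 9 members and, from each list, those past limma or else the 2 of smallest p. Marker genes named are those past limma or among the 4 brightest of their list. The 5 genes closest to the member of largest fold change are also named. Jam2's neighbours, Emcn, Tie1, Cldn7, Cldn19, Cxadr, Epcam and Krt18 were named after their values were seen. Other settings tried were an offset of 50, quantile normalization, no filter and a strict filter, the mean of a gene's probe sets, eBayes without trend, the methods' t-test, the study's thresholds, a replicate block, all probe sets tested, leaving out each array and, added later, centring on endothelial or cardiomyocyte markers.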

Additional observations from a re-analysis of the deposited data

How the results depend on the processing

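Jam2 had a negative log2 fold change in all 17 alternatives (-0.77 to -0.33) and an adjusted p under 0.05 in 6 of them: quantile normalization (0.041), an offset of 50 (0.036), no filter (0.046), a strict filter (0.033), and without Glut1-TG replicate 1 (0.036) or 3 (0.038). The number of members called lower was 0 with the mean of the probe sets, eBayes without trend, the methods' t-test (adjusted p = 0.31), the replicate block and both centrings, and 0 to 1 when each array was left out; no member was called higher under any alternative. Over all genes, 113 calls became 46 with the mean of the probe sets, 4 without trend, 1 with the methods' t-test, 770 at the study's thresholds, 73 when centred on endothelial markers, and 44 to 86 when each array was left out. At the study's thresholds the other tight junction genes had 1 call higher and 2 lower, against 0 and 0 by limma. The higher call was Cldn10, which passed the filter only through its Glut1-TG signals.

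The replicate number as a block left 69 genes and 0 members called. Deviations of same-numbered arrays from their group means had r = 0.080, -0.034 and 0.055 across genes. Glut1-TG replicate 1 correlated best with WT replicate 1. Glut1-TG replicates 2 and 3 correlated best with WT replicates 3 and 2 (r = 0.021 and 0.064). The numbers were not taken as pairs, though values this small do not settle whether the arrays were paired.

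Among members that did not pass, the sign turned with the mean of the probe sets in Jam3 (0.089) and F11r (0.25), without Glut1-TG replicate 2 in Cldn5 (0.084, in a range of -0.27 to 0.084 over the arrays left out), without WT replicate 1 in Cldn12 (0.097, in a range of -0.34 to 0.097). The cause of these turns was not tested. Centring on cardiomyocyte markers shifts every gene alike and moved the median over all genes to 0.20, against 0.017 before, so that small negative values had to turn: F11r (0.051), Cldn5 (0.042), Cldn12 (0.028) and Tjp1 (0.13) all stayed under that median. Cldn15, Ocln and Cldn1 were positive wherever they could be tested, and Cldn1 was too dim in 6 of 17 alternatives.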
